A study of Mus musculus with 108 samples.

Results

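Broad TSS domains of the young liver were defined as unbroken autosomal stretches of 200 bp bins in chromatin state 1 or 2, at least 4 kb wide, in the segmentation of mice at 3 months of age. There were 3124 such domains among the 18811 autosomal stretches of these states (16.6%). They held 17.6 Mb, 43.7% of all bins in the TSS states and 0.713% of the autosomal bins. The domains were chosen by their width in the segmentation at 3 months. Their widths and states there, and their changes from 3 to 12 months, are therefore given as descriptions without a test.

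The data came from ChIP-seq of H3K4me3, H3K27ac, H3K4me1 and H3K27me3 in formalin-fixed, paraffin-embedded (FFPE) livers of female C57BL/6 mice. The groups used here were SD 3m (standard diet, 3 months, 30 libraries), SD 12m (standard diet, 12 months, 29 libraries) and CR 12m (12 months, caloric restriction by 30%, 29 libraries). Of these, H3K4me3 accounted for 7, 8 and 5 libraries in the same order. The authors merged the libraries of a group before they assigned 1 of 8 chromatin states to each bin, so every group has 1 segmentation. No difference between groups can be set against the spread between mice, the read depth behind a label is unknown, and both 12-month groups are compared with the same SD 3m segmentation. The part of depth or number of libraries in any difference below was not tested. All intervals in parentheses are 95% intervals over domains, bins or TSS (Wilson for shares, order statistics for medians), which are not independent of each other.

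H3K4me3 marks the start of active and poised genes, where it is deposited by the SET1 and MLL methyltransferase complexes at CpG-rich, nucleosome-depleted promoters. At most promoters the mark forms a narrow peak, whereas at a minority it spreads into a broad domain, which in many tissues lies over genes of cell identity. In the chromatin model used here, state 1 is the active TSS and state 2 the sequence flanking it. States 3 and 4 are active enhancer states, state 5 is a poised enhancer state, state 6 is Polycomb-repressed, state 7 is found at repeats and lamina-associated sequence, and state 8 carries none of the marks. A state is a label that the model gives to a combination of marks along the genome, not a call of a single mark, and the signal of the marks was not analysed here.

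Promoter sequences of 6 genes under a domain are shown, from 250 bases before to 50 bases after the RefSeq start in GRCm38.p6, with each CpG in capitals. They were picked after their values were seen, because together they span the range from domains that kept most or all of their TSS-state bins in both 12-month groups (Prox1, Cebpa, Rbp4, Nr2f2) to domains that kept none (Ide, Gimap4), and from CpG-rich to CpG-free starts.
Prox1 (chr1:190170778-190171077, minus strand): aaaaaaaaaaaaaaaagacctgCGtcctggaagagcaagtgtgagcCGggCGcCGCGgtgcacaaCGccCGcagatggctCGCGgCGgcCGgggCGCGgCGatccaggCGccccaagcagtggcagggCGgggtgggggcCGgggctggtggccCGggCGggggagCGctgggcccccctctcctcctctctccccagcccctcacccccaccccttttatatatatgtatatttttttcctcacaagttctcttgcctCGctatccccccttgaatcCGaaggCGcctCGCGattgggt
Cebpa (chr7:35119043-35119342, plus strand): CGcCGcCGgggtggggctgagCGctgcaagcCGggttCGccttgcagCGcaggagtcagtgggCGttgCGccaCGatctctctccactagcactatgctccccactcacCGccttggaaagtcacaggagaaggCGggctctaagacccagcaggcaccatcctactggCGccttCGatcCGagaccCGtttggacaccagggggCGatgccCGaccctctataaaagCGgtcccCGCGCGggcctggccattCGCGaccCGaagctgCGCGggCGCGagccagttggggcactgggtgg
Nr2f2 (chr7:70366697-70366996, minus strand): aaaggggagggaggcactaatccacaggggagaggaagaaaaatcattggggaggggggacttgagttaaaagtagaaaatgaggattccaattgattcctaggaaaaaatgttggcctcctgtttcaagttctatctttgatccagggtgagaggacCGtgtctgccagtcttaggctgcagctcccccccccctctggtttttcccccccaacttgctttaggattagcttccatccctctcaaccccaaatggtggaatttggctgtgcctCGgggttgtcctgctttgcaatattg
Rbp4 (chr19:38125272-38125571, minus strand): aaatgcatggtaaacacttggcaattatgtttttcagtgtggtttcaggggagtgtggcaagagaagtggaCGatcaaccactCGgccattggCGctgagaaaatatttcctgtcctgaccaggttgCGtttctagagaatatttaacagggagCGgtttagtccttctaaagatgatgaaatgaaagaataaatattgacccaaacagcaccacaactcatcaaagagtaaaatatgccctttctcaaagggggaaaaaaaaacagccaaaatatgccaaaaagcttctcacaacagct
Ide (chr19:37334495-37334794, minus strand): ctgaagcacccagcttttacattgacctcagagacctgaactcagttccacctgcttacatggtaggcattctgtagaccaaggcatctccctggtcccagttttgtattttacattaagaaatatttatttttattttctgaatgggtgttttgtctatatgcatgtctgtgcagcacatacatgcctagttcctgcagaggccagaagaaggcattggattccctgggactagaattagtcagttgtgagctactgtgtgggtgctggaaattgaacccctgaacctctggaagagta
Gimap4 (chr6:48684328-48684627, plus strand): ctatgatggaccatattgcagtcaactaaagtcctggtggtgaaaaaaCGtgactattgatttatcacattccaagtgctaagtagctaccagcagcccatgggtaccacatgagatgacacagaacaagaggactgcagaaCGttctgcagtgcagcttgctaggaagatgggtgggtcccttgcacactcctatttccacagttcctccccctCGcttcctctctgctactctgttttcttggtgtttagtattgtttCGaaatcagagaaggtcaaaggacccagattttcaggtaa
The windows of Prox1 and Cebpa, which encode transcription factors of the hepatocyte, held 25 and 29 CpG. Those of Nr2f2, the nuclear receptor COUP-TFII, and of Rbp4, the plasma retinol carrier, held 2 and 5 CpG, although most of their domains was also kept. Ide, which encodes the insulin-degrading enzyme, had no CpG in its window, and Gimap4, a GTPase gene of lymphocytes, had 4. Of the 24963 autosomal TSS, 18236 (73.1%) had a promoter in the RefSeq table at the start used here. The median number of CpG per 300 bases was 24 at the 2911 TSS inside a domain (24 to 25), 21 at the 5125 TSS in a shorter stretch and 5 at the 10200 TSS in another state (4 to 5). Among the domain TSS, the median was 25 where the TSS bin was still in state 1 or 2 in SD 12m and 16 (14 to 19) where it was not, and 25 and 17 (15 to 19) in CR 12m. CpG content of the promoter was thus lower where the TSS itself left the TSS states, while the windows of single genes such as Rbp4 and Nr2f2 departed from that order. For Nr2f2 this holds for the window at the start only. Its whole domain held 3.08 CpG per 100 bp, above the median of 2.78 over all domains.

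At 3 months the domains had a median width of 5 kb and reached 60 kb. State 2 made up most of them, with 79.5% of their bins against 20.5% in state 1, whereas in shorter stretches state 1 made up 30.8%. The usual layout was a core of state 1 flanked by state 2. Both states were present in 91.6% of domains, and of these 83.4% (82.0 to 84.7) had state 2 at both edges and 64.3% had all state 1 bins in 1 run. Outside the edges, 89.4% of the adjoining bins were in enhancer state 3, which occupied 9.90% of the autosomal bins. The sequence of the domains was rich in CpG, with 2.74 per 100 bp against 0.851 over the autosomes, and this was concentrated in state 1, with 6.79 CpG per 100 bp against 1.69 in state 2. The 340 domains at the lower limit of 4 kb and the 415 stretches of 3.8 kb just below it were alike in the share that covered a TSS (87.1% and 85.5%).

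Most domains were promoters. A TSS of the longest curated RefSeq transcript lay in 87.3% of the domains (86.1 to 88.4), compared with 61.2% of stretches of 1 to 3.8 kb. A single TSS was covered by 1834 domains (58.7%) and 2 TSS by 822 (26.3%). Of these pairs 68.6% were divergent, as at promoters shared by a pair of genes read in opposite directions. Over the genome, 14.9% of the 24963 autosomal TSS were under a domain, and 36.1% of the 10279 TSS that were in state 1 or 2 at all. The share was 16.6% for protein-coding genes and 9.16% for lncRNA genes. Around the single TSS the domains were asymmetric, with 86.6% extending further into the gene than upstream of it. Their median extent was 1.4 kb upstream and 3.4 kb downstream.

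The same rule, applied to each segmentation on its own, found 3124 domains at 3 months, 494 at 12 months under the standard diet and 318 under caloric restriction. Stretches of at least 10 kb numbered 114, 14 and 9. The TSS states as a whole went from 40.2 Mb to 20.5 Mb in SD 12m and 17.2 Mb in CR 12m. The median stretch of any width was 1.6, 1.6 and 1.4 kb. Sequence in stretches of at least 4 kb went from 17.6 Mb to 2.62 and 1.67 Mb. Any narrowing of stretches takes more from the sequence above a fixed limit than from the whole, so nothing is read from this comparison. The few 12-month domains were mostly not new. Of the 494 in SD 12m, 91.5% overlapped a domain of SD 3m and 395 were wider at 3 months (median 6.2 kb), and only 5 had no TSS-state bin there. Of the 318 in CR 12m, 92.1% overlapped a domain of SD 3m, 260 were wider at 3 months (median 6.6 kb), and 90% of their bins were also in the TSS states in SD 12m.

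**Figure D1:**
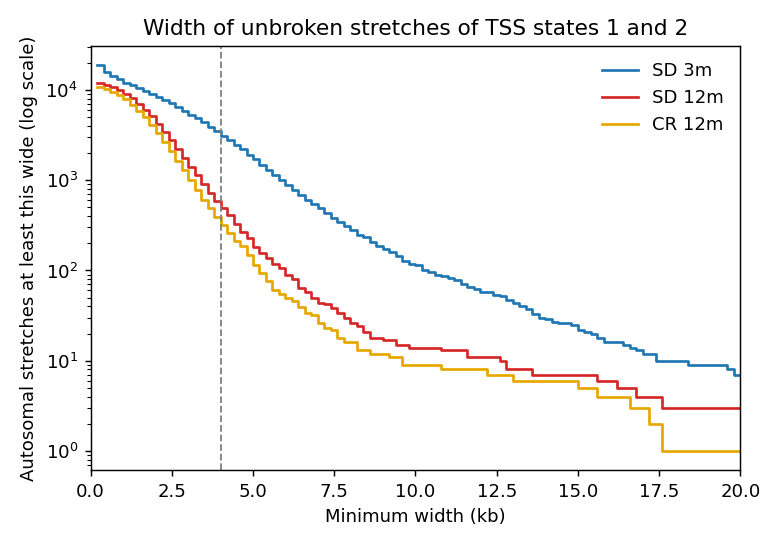
Number of autosomal stretches of states 1 and 2 (vertical axis, log scale) at least as wide as the value on the horizontal axis (kb, shown to 20 kb) in SD 3m, SD 12m and CR 12m, with the 4 kb limit dashed. At 4 kb the curves stand at 3124, 494 and 318 stretches, and SD 12m lies above CR 12m at the limits of 4, 6, 8 and 10 kb.

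Followed at the same positions, a domain kept a median of 50% of its bins in state 1 or 2 under the standard diet at 12 months (50 to 51.5) and 44.4% under caloric restriction (43.5 to 45.0). Over all domain bins the shares were 50.7% and 44.0%. At most 50% of the bins was kept by 51.2% of domains in SD 12m and 65.0% in CR 12m, beside 65% and 74.4% of all 18811 stretches and 49.8% and 62.5% of stretches of 1 to 3.8 kb. Complete loss was rare. No bin was left in 67 domains in SD 12m (2.14%) and 116 in CR 12m (3.71%), against 42.3% and 47.3% of all stretches, and 60 domains had none in both. The longest TSS-state stretch touching the domain had a median of 2.6 kb in SD 12m and 2.2 kb in CR 12m, and it was still 4 kb or more in 14.5% and 9.28% of domains. Growth was also rare, with 36 domains longer than at 3 months in SD 12m (1.15%) and 22 in CR 12m (0.704%), against 4.67% and 3% of all stretches. The domains were chosen for their width in SD 3m, so nothing is read from these counts.

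Within the limits set in SD 3m, the share of bins kept was lowest at the edges of the domains. In SD 12m, 9.40% of the outermost bins were still in a TSS state, and the share rose with each bin to 72.1% in the tenth bin from the edge. In CR 12m the corresponding shares were 6.19% and 65.1%. The edges are those of stretches chosen as wide in SD 3m, and no such profile of shorter stretches is given beside them. Nothing is therefore concluded from this rise on how the domains change. What remained was 1 piece in 85.9% of domains in SD 12m and 85.1% in CR 12m, so that splitting into several pieces was uncommon. Among the 1834 domains with 1 TSS, the TSS bin itself was in state 1 or 2 in 88.5% (SD 12m) and 81.5% (CR 12m) of cases. In the 1438 where it was kept in all 3 groups, the median extent went from 1.4 kb upstream and 3.4 kb downstream to 0.6 and 1.6 kb, with the same medians in both 12-month groups.

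The sequence that left the TSS states was almost all called enhancer state 3. Of the domain bins that left, 91.2% were in state 3 in SD 12m and 91.3% in CR 12m, compared with 74.0% and 74.5% for the bins that left shorter stretches. With a minimum width of 3 kb in place of 4 kb the domain shares were 89.3% and 89.1%. State 4 took 6.29% and 6.91%, and Polycomb state 6 took 0.048% and 0.191%. The age-related state 7 took 0.826% and 0.498%. State 2 bins were kept less often than state 1 bins. Of state 1 bins, 72.1% stayed in state 1 in SD 12m and 63.7% in CR 12m. Of state 2 bins, 38.7% and 31.8% stayed in state 2, and 55.1% and 61.9% passed to state 3.

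**Figure D2:**
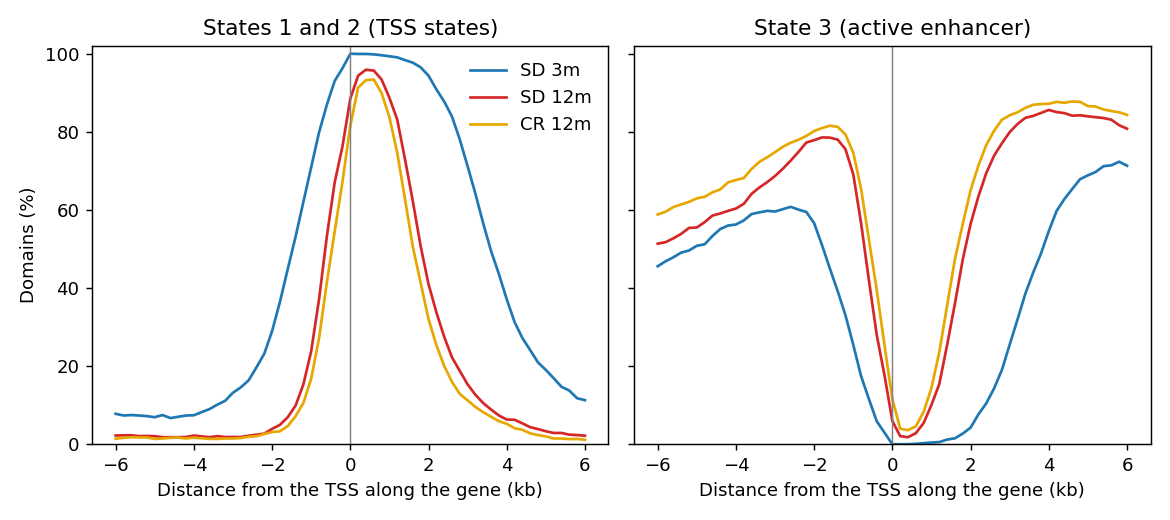
Percent of the 1834 domains with 1 TSS whose bin at a given distance from the TSS (horizontal axis, kb along the gene, negative upstream) is in state 1 or 2 (left) or in state 3 (right) in the 3 groups. At 2 kb downstream the TSS states fell from 94.4% at 3 months to 41.0% under the standard diet and 32.1% under caloric restriction, while state 3 went from 4.25% to 56.4% and 65.0%. At the TSS itself the shares were 100%, 88.5% and 81.5%.

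The longest domain lay on chromosome 1 at the 3′ end of the Ugt1a cluster, whose enzymes conjugate bilirubin and drugs with glucuronic acid. It covered the TSS of Ugt1a1 and Mroh2a (chr1:88210201-88270200) and was 60 kb in SD 3m, 58.8 kb in SD 12m and 46.6 kb in CR 12m. The adjoining domains over Hjurp, a centromere histone chaperone, and Trpm8, a cold-sensing ion channel, measured 21.2 and 16.6 kb at 3 months, 21.2 and 16.6 kb in SD 12m, and 12.0 and 16.4 kb in CR 12m. Here and below, widths at 12 months are those of the longest stretch touching the domain, which differs from the bins kept where a domain was broken. In SD 12m the Ugt1a1, Hjurp and Trpm8 domains kept 98.3%, 99.1% and 98.8% of their bins. In CR 12m they kept 95%, 87.7% and 98.8%. By contrast, the second longest domain, over the chromatin remodeller gene Chd2 and its neighbouring lncRNA Chaserr (chr7:73531201-73561200), went from 30.0 kb to 7.4 and 5.4 kb. It kept 46.7% of its bins in SD 12m and 32% in CR 12m. A domain of 20.4 kb inside Ctnnd1, which encodes p120 catenin, went to 4.2 and 3.0 kb. An intergenic one of 18.2 kb on chromosome 7 (chr7:106235201-106253400) went to longest stretches of 3.6 and 1.4 kb. In SD 12m this domain kept 51.6% of its bins in 5 pieces, beside a median of 50% over all domains. In CR 12m it kept 8.79%. Intergenic here means only that the longest curated RefSeq transcript of no gene overlaps the domain. Over Mup5, a major urinary protein gene, 20 kb at 3 months became 0.4 kb in SD 12m and nothing in CR 12m. Mup5 belongs to a family of near-identical copies, so its reads may be shared with other copies and its values are uncertain.

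Among the domains that were longest in SD 12m, Nr2f2 (chr7:70348401-70368000) measured 19.6 kb at 3 months, 17.4 kb in SD 12m and 10.6 kb in CR 12m. Nfib, a nuclear factor I gene, measured 15.6, 12.6 and 4.8 kb. A domain inside Tcf4, an E-protein transcription factor gene, measured 19.4, 13.4 and 12.8 kb, and an intergenic one on chromosome 9 (chr9:124270001-124283800) 13.8, 12.6 and 9.0 kb. The domain over Sfi1 and Eif4enif1 on chromosome 11 measured 21.2, 16.0 and 17.4 kb, but a further domain inside Sfi1 was made up mostly of sequence with other copies in the assembly. A group of 5 domains, 3 of them at the start of chromosome 9, had other copies for at least 50% of their 50-base words, and these kept 95.8% to 100% of their bins in both 12-month groups. They include 3 of the 5 longest domains that stayed whole in both groups. The other 2 were a domain on chromosome 17 (chr17:39842801-39849000) and that over Slc27a5, a bile acid CoA ligase gene of the liver. The Slc27a5 domain measured 5.8 kb at 3 months, 5.8 kb in SD 12m and 6.2 kb in CR 12m. The chromosome 17 domain held 9.68 CpG per 100 bp, the highest of all domains, and had state 7 on both sides. Other copies were found for 10.2% of its words, but copies absent from the assembly are not counted. Its values are therefore uncertain.

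Hepatocyte transcription factors were nearly all under a domain where their TSS was in a TSS state. Of 24 genes, 14 had a TSS inside one (58.3%, against 14.9% of all autosomal TSS), which is 14 of the 15 that were in state 1 or 2 at all. Their domains kept a median of 76.3% of bins in SD 12m and 69.4% in CR 12m, beside 50% and 44.4% over all domains. Prox1 measured 9.4 kb at 3 months, 9.2 kb in SD 12m and 7.0 kb in CR 12m. Ppara, the nuclear receptor of fatty acid oxidation, measured 8.0, 6.2 and 7.4 kb. Cebpa measured 5.8, 5.2 and 5.2 kb, Rxra 6.8, 6.0 and 5.0 kb, and Gata6 7.0, 6.2 and 6.4 kb. Nr1h4, the bile acid receptor FXR, was the only one to keep 50% or less in SD 12m, with 5.6, 1.6 and 1.8 kb. Foxa3 stayed at 4.4 kb in SD 12m and measured 1.8 kb in CR 12m. The TSS of Hnf4a used here was in state 3 in all 3 groups, so no domain covered it. The starts of other Hnf4a transcripts are not given here.

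**Figure D3:**
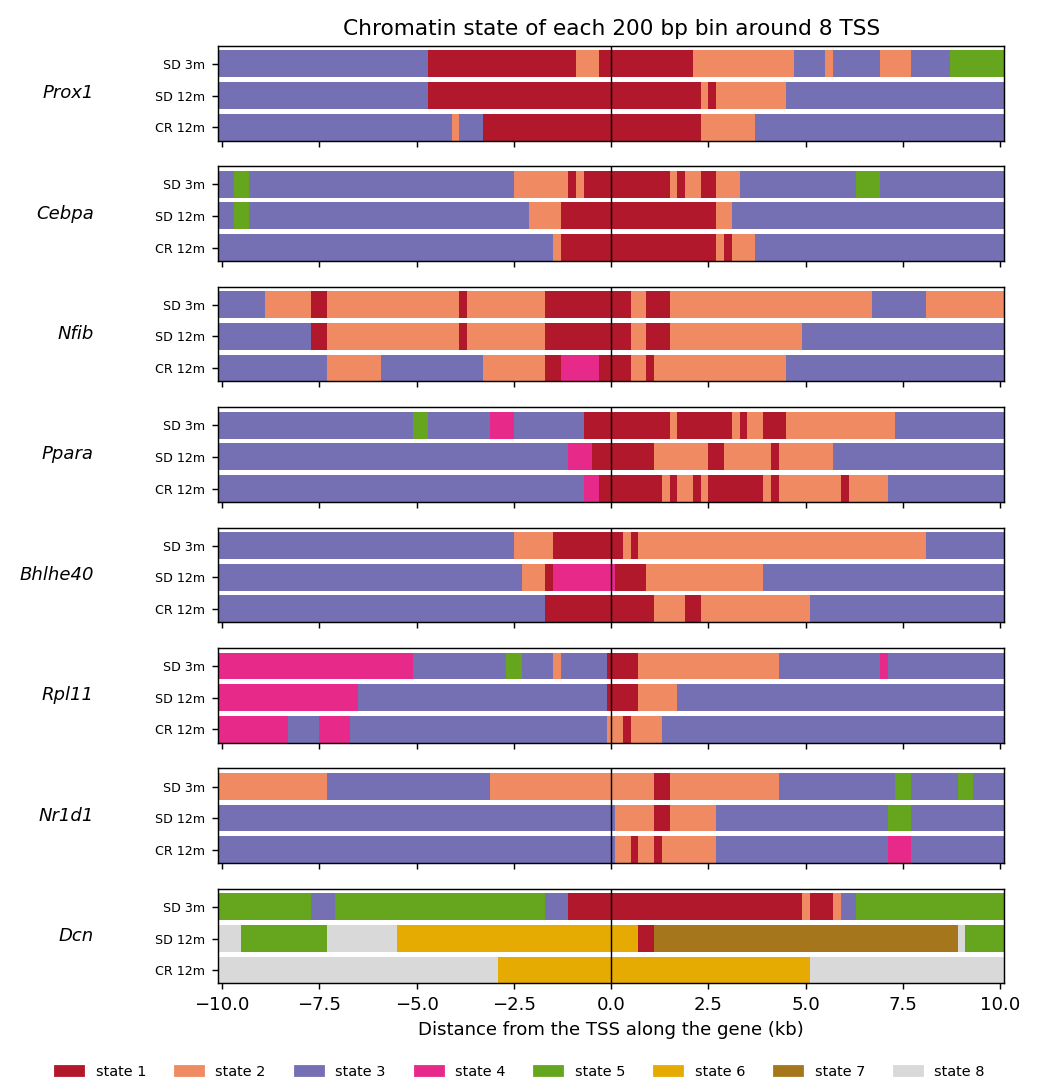
State of each 200 bp bin (colour) within 10 kb of 8 TSS, in rows for SD 3m, SD 12m and CR 12m, with distance along the gene on the horizontal axis (kb). Prox1, Cebpa and Nfib keep most of their red and orange TSS states in SD 12m, Rpl11 and Nr1d1 keep a core of 1.8 and 2.6 kb, and Dcn passes from state 1 to states 6 and 7.

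The domains over urea cycle and plasma protein genes had median shares kept above those of all domains (50% and 44.4%). In the urea cycle, gluconeogenesis and amino acid catabolism list, 8 of 20 TSS were under a domain, and these kept medians of 81.8% and 82.5% in the SD and CR groups at 12 months, with none of the 8 at or under 50% in either group. Cps1, the entry enzyme of the urea cycle, measured 5.8, 5.4 and 5.0 kb in SD 3m, SD 12m and CR 12m, and Tat, a tyrosine-degrading enzyme, 4.6, 4.0 and 5.4 kb. In the plasma protein list 7 of 36 TSS were covered, with medians of 81.0% and 90.5%. Rbp4 stayed at 4.6 kb in all 3 groups, and Apob, the protein of VLDL particles, measured 4.4, 4.8 and 4.2 kb, whereas Apoa2, an HDL protein, went from 6.0 to 2.4 and 1.6 kb. Of the plasma protein genes, 19 were in state 1 or 2 at their TSS, so 12 of these lay in shorter stretches. The 7 are 36.8% of these 19, near the 36.1% of all TSS in state 1 or 2.

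Lipid synthesis genes had 11 of 24 TSS under a domain, 57.9% of those in state 1 or 2, beside 36.1% of all such TSS. These domains kept medians of 66.7% in SD 12m and 52.4% in CR 12m, beside 50% and 44.4% over all domains. Hmgcs1, an enzyme of cholesterol synthesis, measured 7.0, 4.8 and 3.4 kb, and Elovl5, a fatty acid elongase, 5.2, 4.4 and 2.4 kb. The growth hormone, IGF and insulin list had 8 of 20 TSS covered (66.7% of those in state 1 or 2) and medians of 67.9% and 52.7%. Its domains were longer in SD 12m than in CR 12m for 6 genes, longer in CR 12m for none and equal for 2, beside 63.3%, 22.4% and 14.3% of all domains. Foxo3, a transcription factor downstream of insulin, measured 9.4, 4.2 and 3.8 kb.

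Of 22 clock gene TSS, 8 were under a domain (47.1% of those in state 1 or 2, beside 36.1% of all such TSS). These domains kept medians of 40.7% (SD 12m) and 40.4% (CR 12m), beside 50% and 44.4% over all domains. Of these 8 domains, 7 in SD 12m and 5 in CR 12m kept at most 50% of their bins, beside 51.2% and 65.0% of all domains. The domain of Per1, a repressor of the clock, went from 13.0 kb to 1.6 and 2.8 kb, that of Nr1d1 (REV-ERB alpha) from 7.4 to 2.6 kb in both, and that of Tef, an output transcription factor, from 5.0 to 1.0 and 1.4 kb. Bhlhe40 (DEC1) measured 10.6, 3.8 and 6.8 kb. Domains of the list were longer in CR 12m than in SD 12m for 5 genes and shorter for 1, beside 22.4% and 63.3% of all domains. Neither the urea cycle list, with 4 longer in either group, nor the oxidative phosphorylation list, with 12 longer in SD 12m and 13 in CR 12m, had the order of all domains. Clock genes cycle over the day, and the time of day at which the livers were taken is not given in the sources used here. Its part in these values was not tested.

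Immediate early and stress response genes had the highest share of the lists under a domain, 20 of 30 TSS (66.7%, beside 14.9% of all autosomal TSS). Among TSS in state 1 or 2 their share was 71.4%, below the 93.3% of hepatocyte transcription factors and beside 36.1% of all such TSS. The 20 domains kept medians of 61.8% in SD 12m and 50% in CR 12m. Of these 20 domains, 7 in SD 12m and 12 in CR 12m kept at most 50% of their bins, beside 51.2% and 65.0% of all domains. Junb, a subunit of AP-1, measured 15.4 kb at 3 months, 3.6 kb in SD 12m and 2.4 kb in CR 12m. Mcl1, an anti-apoptotic gene, measured 14, 4.8 and 4.6 kb, and Zfp36, which destabilises mRNA, 13.4, 4.4 and 4.2 kb. Zfp36l1 measured 13.2, 8.2 and 4.2 kb and Klf9, a target of glucocorticoids, 6.2, 5.0 and 5.8 kb. Of the 20, 15 were longer in SD 12m, 3 in CR 12m and 2 were equal, which is near the shares of 63.3%, 22.4% and 14.3% over all domains.

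Enzymes that write, erase or bind H3K4 and H3K27 modifications were under a domain at 11 of 22 TSS (57.9% of those in state 1 or 2, beside 36.1% of all such TSS), with medians of 52.4% and 45.8% kept. Setd1a and Setd1b, which encode H3K4 methyltransferases, differed, with 12.8, 2.4 and 2.2 kb for the first and 13.2, 9.6 and 7.6 kb for the second. Kdm6b, an H3K27 demethylase, measured 6.8, 3.6 and 1.2 kb, and Ezh2, the Polycomb methyltransferase, 4.8, 2.2 and 2.2 kb. Cytosolic ribosomal protein genes had 28 of 77 TSS covered (36.4%, beside 14.9% of all autosomal TSS). This was 39.4% of those in state 1 or 2. Their domains kept medians of 51.1% and 46.7%, near the 50% and 44.4% of all domains, ending at a median of 2.4 kb in both groups. Genes of oxidative phosphorylation, assembly factors included, had 33 of 94 covered (35.1%, or 39.8% of those in state 1 or 2). These domains kept a median of 54.5% in both groups, above all domains, with the wider gap under caloric restriction. Rpl11 went from 4.4 to 1.8 and 1.4 kb, and Atp5b from 5.0 to 3.8 kb in both. Cell cycle genes had 2 of 20 covered, Pcna and Aurkb (14.3% of those in state 1 or 2), with 10.2, 1.8 and 2.0 kb for Pcna.

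**Figure D4:**
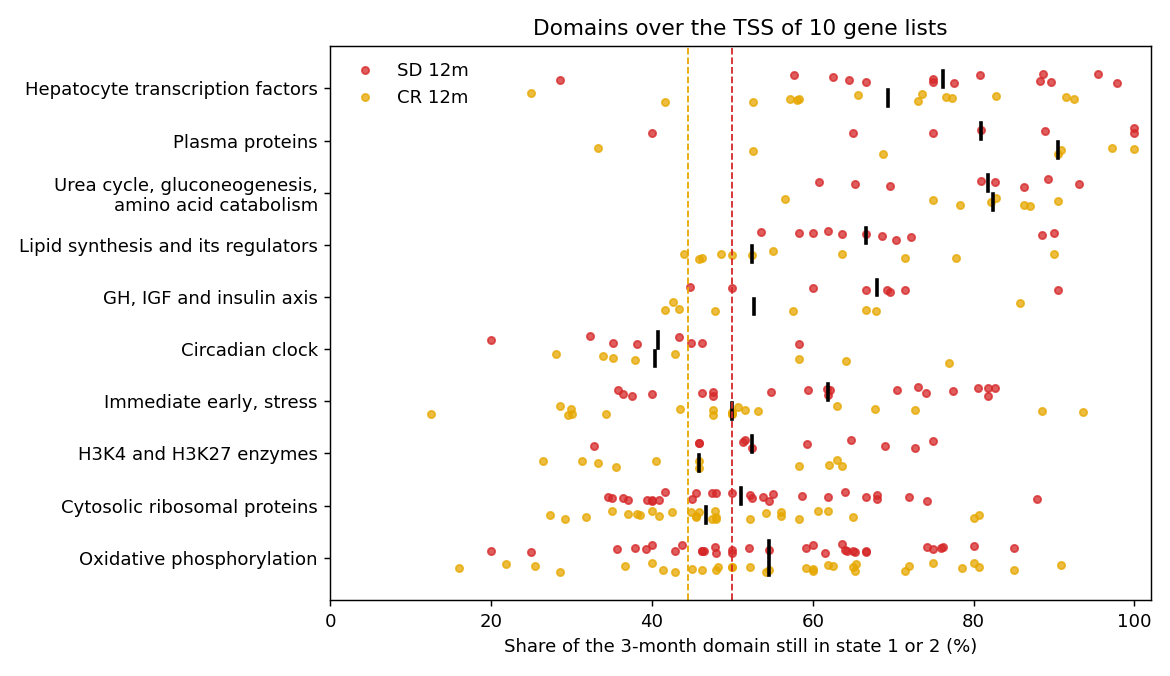
Share of each domain still in state 1 or 2 at 12 months (horizontal axis, %) for the domains over the TSS of 10 gene lists, 1 point per domain for either 12-month group, with black bars at the list medians and dashed lines at the medians of all domains (50% and 44.4%). The urea cycle and plasma protein lists lie to the right, with medians of 81.8% and 81.0% in SD 12m, and the clock list to the left with 40.7%.

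Of 7 hepatocyte markers only Cps1 had a domain over the TSS used here (14.3%, beside 14.9% of all autosomal TSS). The TSS of Alb was in state 4 in all 3 groups. None of 6 Kupffer cell, 8 endothelial, 5 cholangiocyte and 6 blood cell markers was covered, and of these 25 only Pecam1, an endothelial adhesion gene, was in state 1 or 2 at 3 months. Of 7 stellate cell markers only Dcn, which encodes the matrix proteoglycan decorin, had a domain. It measured 7.0 kb in SD 3m, of which 94.3% was state 1, then 0.4 kb in SD 12m and nothing in CR 12m, and its TSS bin was in Polycomb state 6 in both. Of 59 developmental transcription factor genes that are silent in liver, only Hoxa2 had a domain (1.69%, beside 14.9% of all autosomal TSS), with 6.0, 2.6 and 0 kb. As these are bulk tissue profiles, fewer cells of a type and a change within its cells cannot be told apart.

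Domains over a TSS with nothing left at 12 months were few, 12 of 2728 (0.440%) under the standard diet and 28 (1.03%) under caloric restriction, 9 of them shared. They were named after their values were seen. The 9 were those of Ide, Gimap4, Bcl6b, Kank3, Evi2b, Tmub1, Tnfrsf19, Trerf1 and Zfp984. The Ide domain measured 7.8 kb at 3 months and that of Gimap4 6.0 kb. Among those lost in CR 12m with some bins left in SD 12m were Irf5, an interferon regulatory factor (5.6 kb at 3 months and 0.8 kb in SD 12m), Clec12a, a myeloid lectin receptor (6.6 and 1.0 kb), and H2-Eb1, a class II MHC gene (4.8 and 0.2 kb). Itgb8, an integrin gene, measured 5.2 and 2.8 kb. Only 3 were lost in SD 12m with bins left in CR 12m, those of Ifi207, Slc16a13 and a group of histone genes led by H4c9.

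The 396 domains without a TSS behaved differently from those with one. Of these, 31.3% covered the start of another curated transcript of a gene, 64.1% overlapped a gene body, and the median distance to the nearest TSS was 12.9 kb. Of the 272 domains with no curated RefSeq start at all, 35.3% covered a transcript start of GENCODE M21. This left 176 domains (5.63% of all domains) with no start in either annotation. The 396 domains held 1.67 CpG per 100 bp against 2.90 in those with a TSS. Nothing was left of 13.9% of them in SD 12m (10.8 to 17.6) and of 22.2% in CR 12m (18.4 to 26.6), well above the 0.440% and 1.03% of TSS-covering domains. At the same time 18.7% were still 4 kb or more in SD 12m. The longest without a bin left in both groups were an intergenic domain of 9.2 kb on chromosome 2 (chr2:103501601-103510800) and 1 of 8.4 kb inside Trim24. An intergenic domain of 15.2 kb on chromosome 11 (chr11:21379401-21394600) had 0.8 kb left in SD 12m and nothing in CR 12m, and 1 of 8.8 kb inside Filip1l and Cmss1 had 2.8 kb and nothing. Those of 10 kb on chromosome 6 (chr6:129195401-129205400) and 8.0 kb on chromosome 8 (chr8:123174001-123182000) had nothing in SD 12m and 0.2 and 1.4 kb in CR 12m. Domains also stood in groups, and 5 groups had 4 or more within 10 kb of the next. These kept between 15.2% and 40.9% of their bins in SD 12m and between 16.0% and 34.1% in CR 12m. The least kept, chosen after the values were seen, was a group of 7 around Clec2d on chromosome 6, a lectin gene, which spanned 61.4 kb and held 0.455 CpG per 100 bp in its median domain.

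CpG content followed the share kept over all domains as well. In the fifth with the lowest CpG content (median 1.40 per 100 bp) the median share kept was 44.0% in SD 12m (41.3 to 45.8) and 34.6% in CR 12m (32.0 to 36.7). In the fifth with the highest (4.27 per 100 bp) it was 59.1% (57.1 to 60) and 53.8% (52.0 to 55.0). Over the 3124 domains Spearman's rho with the share kept was 0.28 for SD 12m and 0.30 for CR 12m, a description over regions of the same libraries in which CpG content, repeat content, the share of state 1 and the presence of a TSS vary together. Repeat content ran the other way, with a rho of -0.26 and -0.23.

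Between the 12-month groups, a contrast that the choice of domains did not use, the domains were wider in SD 12m. The longest stretch was longer in SD 12m for 1976 domains (63.3%, 61.5 to 64.9), longer in CR 12m for 700 (22.4%) and equal for 14.3%, and the median difference was 0.2 kb, which is 1 bin. The direction was the same on each of the 19 autosomes. The background was of the same direction, with 51.9% and 20.4% among the 12064 stretches of 1 kb or more. A difference of at least 2-fold was seen for 256 domains in favour of SD 12m (8.19%) and 40 in favour of CR 12m (1.28%), which is below the 14.1% and 3.28% of the background. As a group has 1 segmentation, whether this order would hold in other mice cannot be tested.

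The bins kept in the 12-month groups were also compared. Of the domain bins, 40.7% were in a TSS state in both, 10% in SD 12m only, 3.30% in CR 12m only and 46.0% in neither. Both groups are read within the same SD 3m limits, so nothing is drawn from this overlap. By longest stretch, the largest differences in favour of SD 12m were at Ugt1a1, Hjurp, Nfib, Nr2f2 and an intergenic domain of 24 kb on chromosome 6. That domain (chr6:37781801-37805800) measured 11.4 kb in SD 12m and 5.0 kb in CR 12m. A break inside a domain shortens this measure even where most bins were kept. In favour of CR 12m the largest differences were at 3 domains without a TSS, at Bhlhe40 and at Sord, the sorbitol dehydrogenase gene. The Sord domain measured 7.4 kb at 3 months, 4.2 kb in SD 12m and 7.2 kb in CR 12m. Among the 3 was a domain of 14.8 kb on chromosome 4 (chr4:147419401-147434200), with 6.2 kb in SD 12m and 14.8 kb in CR 12m. The others were a domain of 4.8 kb inside Zfp445 (1.2 and 5.8 kb) and an intergenic one of 4.6 kb on chromosome 6 (1.0 and 4.6 kb).

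**Figure D5:**
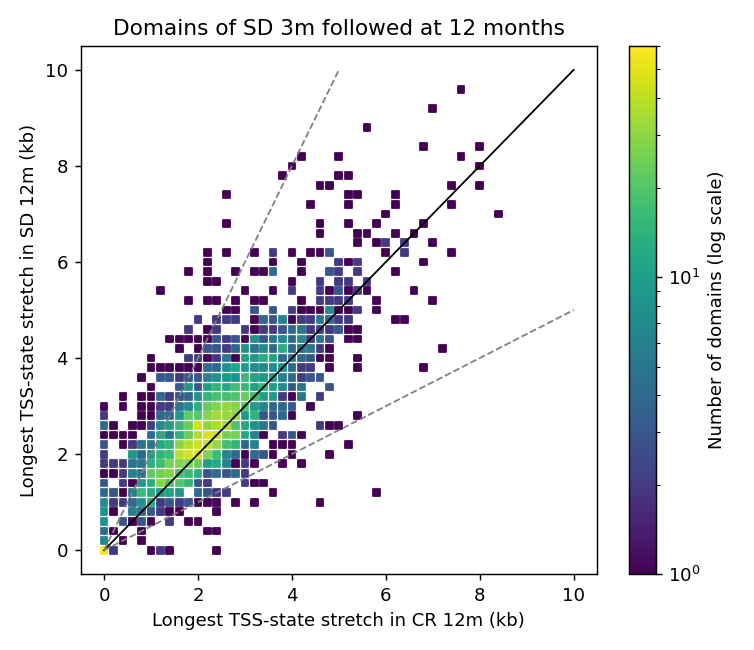
Longest TSS-state stretch touching each SD 3m domain in CR 12m (horizontal axis, kb) and SD 12m (vertical axis, kb), with colour for the number of domains (log scale), a solid line at equality and dashed lines at 2-fold differences, shown to 10 kb. More domains lie above the line (63.3%) than below it (22.4%), most of them within the dashed lines.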

How the data were processed

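ChIP-seq profiles of 4 histone marks from FFPE livers of female C57BL/6 mice were used in the form of 3 deposited segmentations (SD 3m, SD 12m, CR 12m). The authors aligned reads to mm10 (BWA 0.6.2-r126 and SAMtools 0.1.18 per the submitters' processing notes), merged the libraries of a group, and binarized and segmented them with ChromHMM into 8 states in bins of 200 bp. The deposited value is a state label, neither a count nor a signal, so read depth is unknown, no test across mice was possible, and fold values are ratios of widths. SD 6m was not analysed here.

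Unbroken stretches of states 1 and 2 of at least 4 kb in SD 3m were taken as domains. Their bins, and the longest stretch touching them, were read in the other segmentations. TSS were those of the longest curated RefSeq transcript of 26089 genes (GRCm38.p6, 24963 autosomal). Base composition and copies of 50-base words came from the same assembly. Python 3.11.15, numpy 2.4.6, pandas 2.3.3, scipy 1.17.1, numba 0.67.0 and matplotlib 3.10.9 were used, and the functions were tested on simulated data. The domains and gene lists were chosen with earlier results of these data known. Named domains were the 10 longest in SD 3m and in SD 12m, the 5 longest left without a bin in each 12-month group, the 5 with the largest difference between these groups in each direction, the 5 longest kept whole, and all list members. Other genes named are stated to have been chosen after their values were seen. Alternatives were other width limits, bridged breaks of 1 bin, chromosome X included, only TSS-covering domains, a dropped chromosome or edge bins, other definitions of kept, reduced and longer, and another set of TSS.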

Additional observations from a re-analysis of the deposited data

How the results depend on the processing

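Of the 48 values that sum up the comparisons under other settings, 32 moved by less than their 95% interval over domains and 16 by more. Wherever both groups had a value, SD 12m kept the larger share. Of the other values, 73 stayed within their interval and 42 did not. With minimum widths of 3, 5 and 6 kb the median share kept was 52.2%, 48.8% and 47.8% in SD 12m and 45.5%, 42.9% and 41.7% in CR 12m. The share at least 2-fold longer in SD 12m was 9.64% at 3 kb and 7.26% at 5 kb. Over domains with a TSS, 6.30% were at least 2-fold longer in SD 12m and 0.880% in CR 12m. Without the first and last bin of each domain the shares kept were 54.5% and 47.6%, and where a bin had to stay in the same one of states 1 and 2 they were 45.2% and 38.7%. Counting any difference of 1 bin gave 63.3% and 22.4% in place of the 2-fold shares. A minimum width of 3 kb gave 5344 domains and 6 kb gave 880. The 3 alternatives chosen after seeing the data, leaving out domains of multicopy sequence, the 10 longest domains, or domains in groups of 4 or more, moved none of the shares kept or of the 2-fold shares beyond its interval, but without the groups the share of lost bins in state 3 was 91.6% in both 12-month groups, above its interval. The cause of these shifts was not tested.

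No paired analysis was possible because each group has 1 segmentation of merged libraries, and for the same reason no replicate was left out. The intervals count domains or bins of the same libraries and say nothing of the spread between mice. Regions of artificially high signal were not removed, since no list of them was used here.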
